A study of Mus musculus with 36 samples.

Results

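The MHC class II genes H2-Aa, H2-Ab1, H2-Eb1, Cd74, H2-DMa, H2-DMb1 and Ciita were examined by name in mouse submandibular salivary glands, in single-cell RNA libraries of control and tumour-bearing glands. These 7 genes were all detected among the 29219 genes with at least 1 unique molecular identifier (UMI) in 26 Drop-seq libraries, and all 7 among the 23645 detected in 4 CITE-seq libraries, in which antibody tags were read from the same cells. Each library came from 1 gland. The double-mutant glands carried K14-Cre, a gain-of-function allele of β-catenin, a loss-of-function allele of Bmpr1a and the R26-EYFP reporter, and the controls, given as wildtype in the labels, carried K14-Cre and the reporter without the mutant alleles, per the methods of the study. The Keratin 14 promoter drives Cre in epithelium, so the alleles were targeted to epithelial cells, and the mice had a C57BL/6 background. Drop-seq was run at postnatal day 40 (P40) on 6 control and 7 double-mutant glands and at P90 on 6 and 7, from males and females, as sorted live cells fixed in methanol. CITE-seq covered 2 control and 2 double-mutant glands at P70 as fresh cells.

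MHC class II molecules present peptides from the endosomal pathway to CD4+ T cells. H2-Aa and H2-Ab1 encode the α and β chains of the classical molecule I-A, and H2-Eb1 encodes the β chain of the classical molecule I-E. Cd74 is the invariant chain, which fills the peptide groove during assembly and leads the complex to the endosome. H2-DMa and H2-DMb1 encode chains of the DM molecule, which exchanges the invariant chain fragment for peptide. Ciita is the transactivator that turns the family on, together with factors that sit on the X and Y boxes of the promoters. Dendritic cells, macrophages and B cells carry class II molecules without induction, whereas epithelial and endothelial cells can make them after interferon-γ.

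In the gene models of the GRCm38 build, 5 of the 7 genes lay close together on chromosome 17: H2-DMa at chr17:34119541-34139101, H2-DMb1 at chr17:34153072-34160230, H2-Ab1 at chr17:34257689-34269419, H2-Eb1 at chr17:34305867-34316674, all on the forward strand, and H2-Aa at chr17:34282744-34287823 on the reverse strand. Ciita lay at chr16:10480059-10528418, and Cd74 lay on another chromosome. H2-Ea-ps, annotated as a polymorphic pseudogene of the I-E α chain, lay beside H2-Eb1 at chr17:34341959-34344645 on the reverse strand. The promoter windows of H2-Eb1, H2-Aa and H2-DMb1 are shown because levels of H2-Eb1 moved apart from those of H2-Aa between glands and because H2-DMb1 stood apart in epithelium. They run 5′ to 3′ from 250 bases before to 50 bases after the start of the gene, from RefSeq on GRCm38.p6, at chr17:34305617-34305916 (forward) for H2-Eb1, chr17:34287774-34288073 (reverse) for H2-Aa and chr17:34152941-34153240 (forward) for H2-DMb1. Capitals mark a form of the X box (AG, 2 free letters, AC, a free letter, GA, a free letter and G) and CCAAT, the core of the Y box, on either strand.
H2-Eb1: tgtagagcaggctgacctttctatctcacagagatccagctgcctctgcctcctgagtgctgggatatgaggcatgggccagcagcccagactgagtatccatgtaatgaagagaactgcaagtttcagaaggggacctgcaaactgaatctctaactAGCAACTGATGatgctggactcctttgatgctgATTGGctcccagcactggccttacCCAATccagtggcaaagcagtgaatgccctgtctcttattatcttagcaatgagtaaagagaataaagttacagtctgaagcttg
H2-Aa: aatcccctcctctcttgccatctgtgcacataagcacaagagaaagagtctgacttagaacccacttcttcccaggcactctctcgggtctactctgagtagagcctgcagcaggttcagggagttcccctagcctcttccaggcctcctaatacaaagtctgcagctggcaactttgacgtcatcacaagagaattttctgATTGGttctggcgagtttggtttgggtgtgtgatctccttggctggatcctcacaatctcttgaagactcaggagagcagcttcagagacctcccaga
H2-DMb1: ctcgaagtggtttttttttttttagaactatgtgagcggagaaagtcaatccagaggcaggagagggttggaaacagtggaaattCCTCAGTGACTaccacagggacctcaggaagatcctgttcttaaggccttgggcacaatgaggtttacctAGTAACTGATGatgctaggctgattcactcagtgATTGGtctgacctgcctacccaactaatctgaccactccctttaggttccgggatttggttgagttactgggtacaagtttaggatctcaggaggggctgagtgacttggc
The H2-Eb1 window held AGCAACTGATG 92 bases before the start and CCAAT letters at 59 bases (as ATTGG) and 35 bases. The H2-DMb1 window held AGTAACTGATG 95 bases before the start, the same form on the other strand at 165 bases, and ATTGG at 61 bases. In the H2-Aa window ATTGG stood 48 bases before the start and the X-box letters searched were not found. Of 32851 promoter windows of the same length, 5.33% held the X-box letters, 37.4% held CCAAT on either strand and 1.98% held both, and a match describes letters only.

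After filtering, 23346 Drop-seq cells and 2535 CITE-seq cells were kept, with 650301 to 6994504 UMIs per Drop-seq gland and 670322 to 2205865 per CITE-seq gland. Over all Drop-seq glands the family gave 35065 Cd74, 17465 H2-Aa, 15149 H2-Ab1, 6411 H2-Eb1, 792 H2-DMa, 755 H2-DMb1 and 43 Ciita UMIs, so the last is read from very few molecules. Both genotypes were present in batches 8, 9, 12, 13 and 14, as numbered in the library titles, whereas controls of P40 and of P90 shared no batch. Of the Drop-seq libraries, 2 double-mutant libraries went against their sex labels: P40 replicate 1, labelled male, held 591 Xist and 1 Y-linked UMIs, and P90 replicate 5, labelled female, held 0 and 194. All CITE-seq libraries held both kinds, with 151 and 165 Xist and 60 and 71 Y-linked UMIs in controls, labelled male and female, and 193 and 154 Xist and 16 and 14 Y-linked UMIs in double mutants, both labelled female. The CITE-seq model had no sex term. Drop-seq libraries shared 14 cell barcodes and CITE-seq libraries 2. Cells were clustered without the class II genes, and p-values measure the spread between glands.

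Class II RNA was higher in double-mutant than in control glands, and the β chain of I-E differed most. Of the 6 members that passed the filter on low counts, 5 were called higher in double-mutant glands, beside 14.4% of the 10488 genes tested that were called higher and 22% called in either direction. The median fold change over these 6 members was 1.33 on the log2 scale, against 0.02 over all genes tested. Fold changes are log2 double mutant over control, from edgeR's quasi-likelihood test on UMIs summed per gland. The model held sex and stage, with Benjamini-Hochberg adjustment over all genes tested. Standard errors were derived from that test, as the size of the fold change divided by the square root of the F statistic. Levels are given as CPM, the usual scaling of a UMI count by the total of its gland or class of cells.

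H2-Eb1 ran from 0.792 CPM with a median of 2.13 to 87.3 CPM in the P40 controls, and from 0 with a median of 10.9 to 19.2 CPM in the P90 controls. In double mutants it ran from 49.1 with a median of 94.4 to 889 CPM at P40 and from 42.0 with a median of 399 to 943 CPM at P90. Every double-mutant gland lay above 11 of the 12 controls, 11 of the 14 lay above every control, and at P90 the genotypes did not overlap. The share of all genes without such overlap was not counted. The log2 fold change was 3.76 ± 0.67 (SE), or 13.6-fold, with an adjusted p of 0.000561 in edgeR. Without control P40 replicate 2, the control with 87.3 CPM, the log2 fold change was 4.68. Within each of the 5 batches that held both genotypes the double-mutant glands were also higher, by 1.07 to 10.2 on a log2 scale with 0.1 CPM added. Cd74 was also higher in 5 of 5 batches (0.43 to 5.01), and H2-Aa, H2-Ab1, H2-DMa, H2-DMb1 and Ciita in 4 of 5.

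The chains of I-A had smaller fold changes. H2-Aa had medians of 61.2 CPM (20.9 to 258) in control glands at P40 and 348 CPM (36.3 to 690) in the P90 controls, and medians of 218 CPM (124 to 2092) and 525 CPM (103 to 1048) in double-mutant glands at P40 and P90. Only 5 of the 14 double-mutant glands lay above every control. The log2 fold change of 0.92 ± 0.40 did not pass, with an adjusted p of 0.0975 in edgeR. H2-Ab1, whose medians were 113 CPM over controls and 336 CPM over double mutants, was called higher at 1.24 ± 0.42 with an adjusted p of 0.0382, and 6 of 14 double-mutant glands lay above every control.

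Cd74, the invariant chain, had medians of 85.2 CPM (32.0 to 362) and 572 CPM (57.8 to 931) in control glands at P40 and P90, and medians of 463 CPM (265 to 4977) and 1366 CPM (236 to 4159) in double-mutant glands. The groups overlapped, with 7 of 14 double-mutant glands above every control. Cd74 rose by 1.55 ± 0.44 on the log2 scale, or 2.92-fold, with an adjusted p of 0.0161 in edgeR. Of the DM chains, H2-DMa rose by 1.43 ± 0.40 with an adjusted p of 0.0145 and H2-DMb1 by 1.13 ± 0.37 with an adjusted p of 0.0323. Their medians were 4.48 and 5.11 CPM over controls and 20.8 and 18.5 CPM over double mutants, and for each, 7 of 14 double-mutant glands lay above every control. Leaving out each gland in turn, H2-Eb1, Cd74 and H2-DMa were called in all 26 fits, H2-DMb1 in 17 and H2-Ab1 in 13. H2-DMb1 has a near-identical neighbour, H2-DMb2, so its counts are uncertain as far as reads were shared between them. Ciita was at 0 in 7 glands, reached 1.95 CPM in controls and 5.18 CPM in double mutants, and was not tested.

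**Figure D1:**
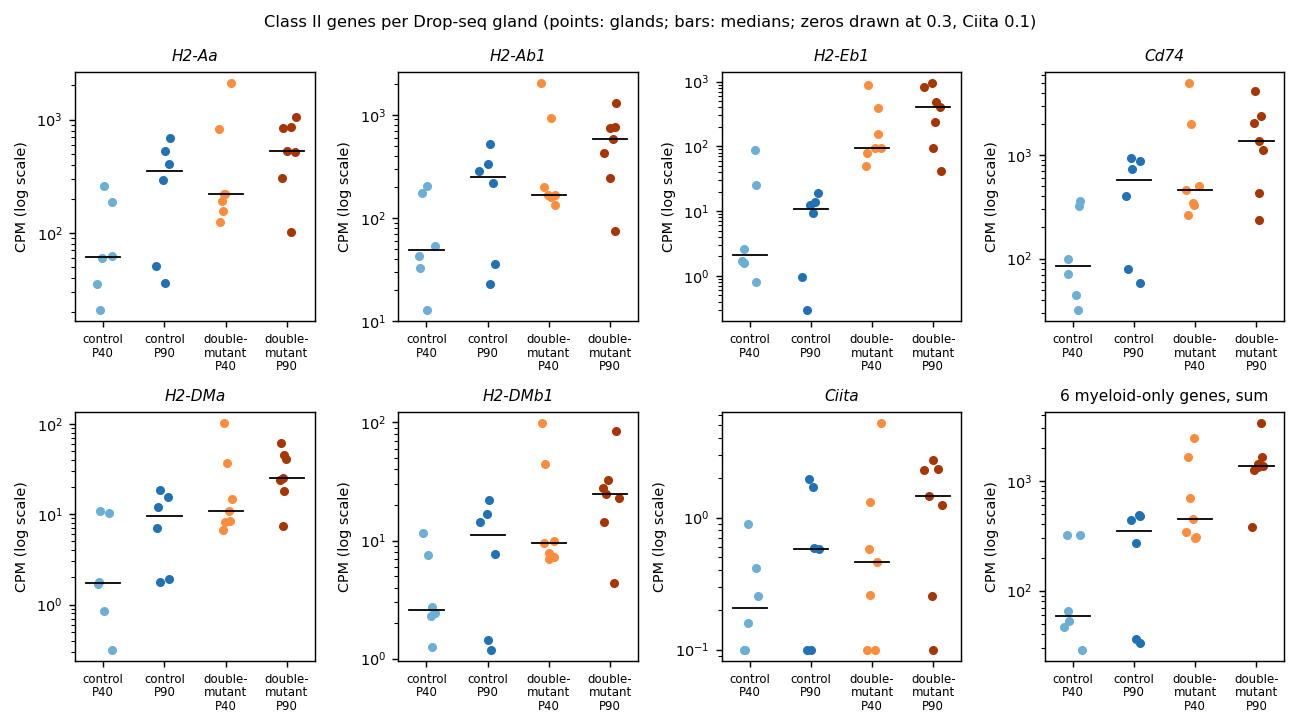
Level in CPM (log axes) of each of the 7 class II genes, and of the sum of 6 myeloid-only genes, with 1 point per Drop-seq gland and a bar at the median of each of the 4 groups, values of 0 being drawn at the foot of the axis. At P90 the H2-Eb1 groups separate, with every double-mutant gland at or above 42.0 CPM and every control gland at or below 19.2 CPM, whereas the other members overlap. How many genes outside the family separate was not counted.

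Myeloid RNA moved with these whole-gland levels. The sum of 6 genes used as myeloid-only markers, Lyz2, C1qa, C1qb, C1qc, Tyrobp and Fcer1g, had a median of 167 CPM (29.0 to 484) in control glands and 1290 CPM (301 to 3343) in double-mutant glands, and all 6 were called higher. Tyrobp and Fcer1g were also counted in T/NK-like cells, with 259 and 303 UMIs, so the list is not strictly myeloid. In sums over a gland, more cells of a type and more RNA per cell cannot be told apart. Without both libraries that went against their sex labels 3 members were called, H2-Eb1, Cd74 and H2-DMa. With batch in place of stage only H2-Eb1 was called (3.72, adjusted p = 0.0200 in edgeR).

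H2-Eb1 followed the other members less closely from gland to gland than they followed each other. Spearman's rho between pairs of the other members, Ciita left out, was 0.92 to 0.99 over the 26 glands, and with H2-Eb1 it was 0.738 to 0.833, as a description of glands that also share their content of myeloid cells. Counted as UMIs per 100 H2-Aa UMIs, H2-Ab1 ranged over all glands from 61.4 to 125, and H2-Eb1 from 0 to 113. In control glands at P40 the H2-Eb1 value was 1, 2.69, 3.79, 4.44, 42.6 and 46.5, and in control glands at P90 it was 0 (0 of 61 H2-Aa UMIs), 1.85, 2.32, 2.61, 2.78 and 4.23. Among P40 double mutants it was 39.7, 41.8, 42.5, 42.5, 43.3, 47.2 and 98.3, and at P90 it was 31.5, 40.9, 44.7, 46.4, 79.4, 93.0 and 113. No gland lay between 4.44 and 31.5, and none lay between 47.2 and 79.4. In the lowest range stood 10 control glands, in the middle range 2 control and 10 double-mutant glands, and in the highest range 4 double-mutant glands. The glands at 98.3 and 79.4 are those that went against their sex labels.

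The pseudogene H2-Ea-ps varied widely between glands. Among the controls at P40, in the order of H2-Eb1 values given above, it had 20, 6, 1, 11, 1 and 17 UMIs, and among controls at P90 it had 1, 9, 45, 38, 40 and 5. Among double-mutant glands at P40, in the order of their replicate numbers, it had 1, 72, 6, 10, 4, 12 and 1 UMIs, the first being the gland at 98.3. At P90 the double-mutant glands with H2-Eb1 values of 79.4, 93.0 and 113 had 0 H2-Ea-ps UMIs each, and those at 31.5, 40.9, 44.7 and 46.4 had 6, 7, 13 and 10. The 4 glands of the highest range thus had 0 or 1 H2-Ea-ps UMI, as had some glands of the other ranges. The H2-Eb1 pattern was the same in myeloid-like cells alone, where H2-Eb1 ran from 0.853 to 50.5 UMIs per 100 H2-Aa UMIs in controls and from 31.4 to 111 in double mutants. Whether the glands differed in their alleles at these genes was not tested.

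**Figure D2:**
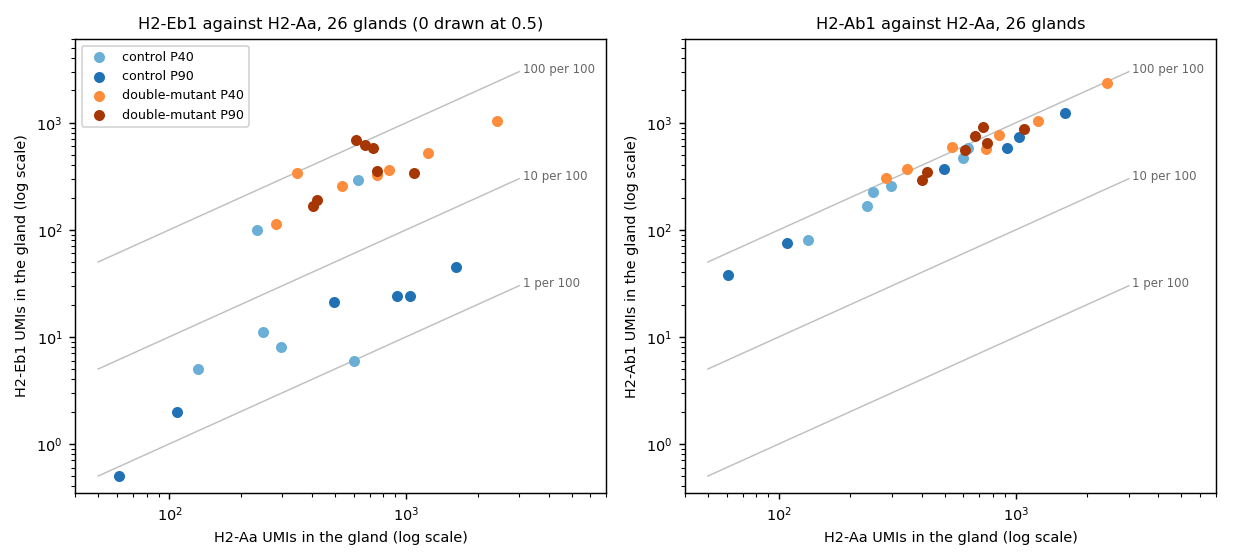
UMIs of H2-Eb1 (left) and of H2-Ab1 (right) against UMIs of H2-Aa in each of the 26 Drop-seq glands (log axes), coloured by genotype and stage, with grey lines of equal UMIs per 100 H2-Aa UMIs and the gland with 0 H2-Eb1 UMIs drawn at 0.5. On the left the glands fall into ranges at or below 4.44, from 31.5 to 47.2 and from 79.4 to 113 per 100, and on the right all glands lie along 1 band from 61.4 to 125.

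At P40 alone, 0 of the 6 members tested were called between genotypes, beside 1.36% of 11420 genes called. Their log2 fold changes were 1.45 to 2.74, with H2-Eb1 at 2.74 ± 0.84 and an adjusted p of 0.0848 in edgeR. All 6 had an unadjusted p under 0.05, and DESeq2 called 4. At P90, H2-Eb1 was the 1 member called, beside 8.07% of genes. It was higher in double-mutant glands by 4.86 ± 0.94, or 29.0-fold, with an adjusted p of 0.00362 in edgeR, and the other 5 had log2 fold changes of 0.36 to 1.05. The same calls were made at either stage without both libraries that went against their sex labels. The difference of the genotype effect between stages was called for 0 of 6 members, beside 0.00876% of genes, with 0 at an unadjusted p under 0.05 and 0 by DESeq2, and for H2-Eb1 it was 2.12 ± 1.15 with an adjusted p of 0.904 in edgeR. The larger H2-Eb1 difference at P90 is therefore not shown to differ from that at P40, although without the filter on low counts H2-Eb1 was the 1 member called.

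Between P90 and P40 in double-mutant glands 0 of 6 members were called in edgeR, beside 0% of genes, 0 had an unadjusted p under 0.05, and DESeq2 called 0. Their log2 fold changes were 0.15 to 0.69. In control glands 0 of 6 were called in edgeR beside 5.04% of genes, 2 had an unadjusted p under 0.05 and DESeq2 called 0. H2-Aa was 1.30 ± 0.57 higher at P90 and H2-Eb1 was −1.44 ± 0.89 with an adjusted p of 0.434 in edgeR. The control medians of H2-Eb1 given above went the other way, and its highest P40 controls stood at 87.3 and 25.6 CPM. Stage and batch cannot be told apart in the controls.

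**Figure D3:**
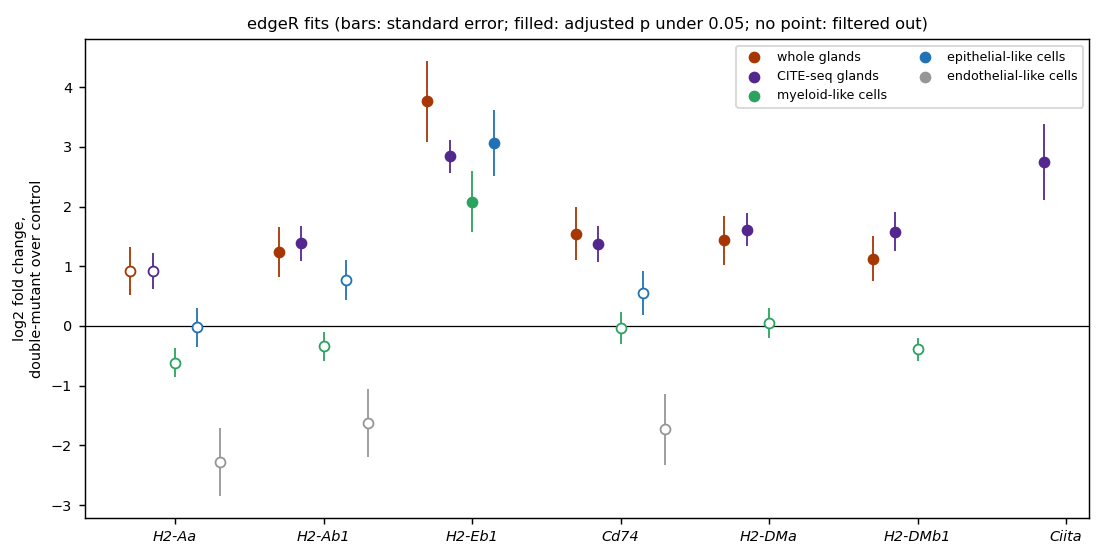
Log2 fold change of each class II gene, double mutant over control (vertical axis), with its standard error, from the edgeR comparisons of whole glands, CITE-seq glands and myeloid-like, epithelial-like and endothelial-like cells, filled where the adjusted p is under 0.05. H2-Eb1 stands at 3.76, 2.84, 2.08 and 3.07 in the whole-gland, CITE-seq, myeloid-like and epithelial-like comparisons, whereas H2-Aa stands at 0.92, 0.93, −0.61 and −0.02.

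Most of the class II RNA came from 1 class of cells. Myeloid-like cells, 2592 in number and named from macrophage and dendritic markers without class II genes, held 92.7% of all class II UMIs. Double-mutant glands held 16.02% ± 8.81 (SD, n = 14) myeloid-like cells and control glands 5.49% ± 4.29 (SD, n = 12), a difference of 10.5 percentage points with p = 0.00054 in a two-sided permutation test. Of the 14 double-mutant glands, 8 lay above every control. At P40 the means were 12.2% and 3.72%, and at P90 they were 19.8% and 7.26%, with p = 0.0105 at either stage in exact two-sided permutation tests. Without both libraries that went against their sex labels the difference was 10.01 percentage points.

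Within myeloid-like cells H2-Eb1 was again higher in double mutants, and no other member passed the test. H2-Eb1 had a median of 226 CPM (66.0 to 2125) over 10 control glands and 2864 CPM (1710 to 8225) over 14 double-mutant glands with at least 10 such cells. At P90 the genotypes did not overlap, and 11 of 14 double-mutant glands lay above every control. The share of all genes without overlap in these cells was not counted. The log2 fold change was 2.08 ± 0.51, or 4.24-fold, with an adjusted p of 0.0106 in edgeR. It was the 1 member called of 6 tested, beside 10.4% of 1709 genes, of which 6.09% were higher. In all 4 batches with both genotypes it was higher in double mutants, by 1.22 to 5.23 on the log2 scale. Without both libraries that went against their sex labels it was 2.04 with an adjusted p of 0.0185 in edgeR.

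In the same cells H2-Aa had a fold change below 0 that did not pass, at −0.61 ± 0.24 with an adjusted p of 0.110 in edgeR. At P90 all 7 double-mutant glands, at 3854 to 7411 CPM, lay below all 4 control glands, at 9290 to 18383 CPM. How many of all genes separated in this way was not counted. Within batches H2-Aa was higher in double mutants in 3 of 4, all of them at P40, by 0.28 to 1.92 on the log2 scale. In batch 9, at P90, it was lower, at −0.90. H2-Ab1 was −0.34, Cd74 −0.03, H2-DMa 0.05 and H2-DMb1 −0.39 on the log2 scale, and none passed. Sub-clusters of these cells differed in share between genotypes. Interferon-responding cells made up 15.3% of control and 4.36% of double-mutant myeloid-like cells, and tissue-remodeling macrophages 0.839% and 12.7%. Their part in these fold changes was not tested. A sub-cluster of 266 myeloid-like cells led by acinar genes made up 22.1% of control and 6.71% of double-mutant myeloid-like cells. Without it, H2-Eb1 was 1.68 with an adjusted p of 0.0786 and no longer passed, and H2-Aa was −0.95 with an adjusted p of 0.0246 and was lower in double mutants, both in edgeR. With batch in place of stage 0 members were called, with H2-Eb1 at 1.93 and an adjusted p of 0.115.

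Among myeloid-like sub-clusters with names, the sum of the 7 genes had gland medians of 53856 CPM in interferon-responding cells, 32671 CPM in the largest sub-cluster with C1q macrophage markers (481 cells, led by Il10) and 8863 CPM in tissue-remodeling macrophages. Type 2 dendritic-like cells, at 51185 CPM, reached 10 cells in 1 gland only. The sub-cluster led by acinar genes had 7691 CPM. These values describe clusters and were not tested.

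**Figure D4:**
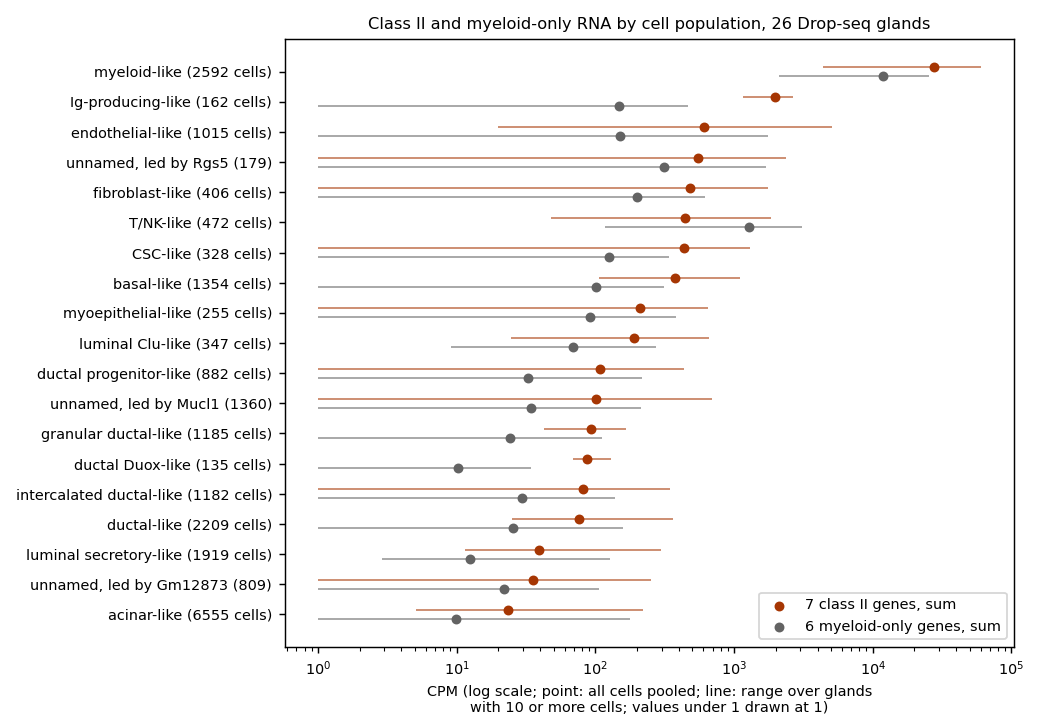
Sum of the 7 class II genes (brown) and of the 6 myeloid-only genes (grey) in CPM (log axis) by cell population in Drop-seq, with points for all cells pooled and lines for the range over glands with at least 10 such cells, values under 1 being drawn at 1. The class II sum is 27663 CPM in myeloid-like cells, 1970 CPM in Ig-producing cells and 23.6 CPM in acinar-like cells.

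Across cell types the order of the pooled sum of the 7 genes began with myeloid-like cells at 27663 CPM, with a gland median of 26283 CPM (4402 to 60434). Ig-producing cells followed at 1970 CPM, of which Cd74 made up 1602 CPM. In these 162 cells Cd74 gave 519 of 638 class II UMIs and stood at 1922 UMIs per 100 H2-Aa UMIs, whereas over whole glands that ratio was 114 to 397. Endothelial-like cells (609), an unnamed cluster led by Rgs5 (554), fibroblast-like (481), T/NK-like (443), CSC-like (435) and basal-like cells (372 CPM) lay below these with no firm order. T/NK-like cells, for example, stood at 623 CPM in controls and 324 in double mutants, and basal-like cells at 396.9 and 358.8. Ranges over glands overlapped among these, as for Cd74, which ran from 0 to 2284 CPM in endothelial-like, from 0 to 1041 in fibroblast-like and from 0 to 602 in basal-like cells. Among the other epithelial types the pooled sum was 209 CPM in myoepithelial-like, 190 in luminal Clu-like, 76.4 in ductal-like and 23.6 in acinar-like cells. Ciita followed the myeloid-like class, with 36 of its 43 UMIs in it.

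The share of cells with a Cd74 UMI was highest in the same 2 classes. With each cell thinned to 500 UMIs, Cd74 was found in 87.5% of 1645 myeloid-like cells, 49.7% of 153 Ig-producing cells, 8.96% of 937 basal-like cells, 5.73% of 681 endothelial-like cells and 0.726% of 6471 acinar-like cells. Without thinning the shares were 91.7%, 74.7%, 10.7%, 8.08% and 4.21%. C1qa, a macrophage complement gene that the other classes should lack, was found after thinning in 57.2% of myeloid-like cells, 0.654% of Ig-producing, 0.320% of basal-like, 1.03% of endothelial-like and 0.0618% of acinar-like cells. Thinning left out 947 myeloid-like, 417 basal-like and 84 acinar-like cells that had fewer UMIs.

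Tumour-associated epithelial populations were found almost only in double mutants, so genotypes were not compared in them alone. They were part of the epithelial-like class compared below. CSC-like cells, named from β-catenin targets such as Axin2 and Lef1, numbered 324 in double mutants and 4 in controls. In the 9 double-mutant glands with at least 10 of them the sum of the 7 genes had a median of 208 CPM and ran from 0 to 1309 CPM. Luminal Clu-like cells numbered 346 and 1, with a median of 117 CPM (24.8 to 660) over 10 double-mutant glands for the sum of the 7 genes. Basal-like cells, at a median of 237 CPM (119 to 1096) over 13 double-mutant glands, lay in the same range. H2-Eb1 gave 18 UMIs in CSC-like, 5 in luminal Clu-like and 22 in basal-like cells, and Ciita gave 0 in each of these, which at this depth does not show that it was absent.

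Epithelial-like cells, 16351 in number, held 3.77% of class II UMIs, at 49.3 CPM pooled. The same cells held myeloid-only RNA. Class II UMIs per 100 UMIs of the 6 myeloid-only genes numbered 340 in control epithelial-like cells against 350 in control myeloid-like cells, and in double mutants 260 against 208. Basal-like cells had 183 class II UMIs beside 21 myeloid-only UMIs in controls and 295 beside 109 in double mutants, or 368 per 100 over both genotypes. That pooled value was not particular to them. Over both genotypes it was 404 in endothelial-like, 381 in granular ductal-like, 346 in CSC-like and 333 in ductal progenitor-like cells. In controls alone, 183 beside 21 was more class II per myeloid-only UMI than in endothelial-like (524 beside 140) or all epithelial-like cells (1392 beside 409). In double mutants endothelial-like cells, at 368 beside 81, had more than basal-like cells. The control value rests on 21 myeloid-only UMIs and was not tested. Pooled basal-like levels were close in both genotypes, at 396.9 CPM in controls and 358.8 CPM in double mutants.

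H2-DMb1 had more UMIs per 100 H2-Aa UMIs in basal-like cells, 40.3 from 27 H2-DMb1 and 67 H2-Aa UMIs, than in myeloid-like cells, 3.88, or endothelial-like cells, 2.37. It came from 8 and 20 UMIs in control and from 19 and 47 in double-mutant basal-like cells. In ductal-like cells it was 28.1 and in acinar-like cells 6.31. The counts are few and pooled over glands, and reads shared with H2-DMb2 cannot be told apart.

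In epithelial-like cells the genotypes differed in H2-Eb1. Its median was 0.502 CPM (0 to 4.87) in control glands, of which 3 of 12 were at 0, and 10.4 CPM (1.10 to 58.8) in double-mutant glands. The log2 fold change was 3.07 ± 0.55, or 8.40-fold, with an adjusted p of 0.000961 in edgeR, and without both libraries that went against their sex labels it was 3.10 with an adjusted p of 0.00289. It was the 1 of 4 members tested that was called, beside 7.95% of 9051 genes, of which 6.15% were higher. H2-Ab1 was 0.76 (adjusted p = 0.142), Cd74 0.55 (adjusted p = 0.343) and H2-Aa −0.02, and none passed in edgeR. Lyz2 rose by 1.93 in the same cells with an adjusted p of 0.00329, and the summed myeloid-only level had a median of 13.5 CPM (3.47 to 28.5) in controls and 31.1 CPM (4.06 to 228) in double mutants. The class also differed in makeup. CSC-like cells made up 0.0446% of it in controls and 4.39% in double mutants, and luminal Clu-like cells 0.0111% and 4.69%. Basal-like cells made up 4.18% and 13.3%, and acinar-like cells 47.0% and 31.7%. The parts of free myeloid RNA and of makeup in the H2-Eb1 difference were not tested. With batch in place of stage H2-Eb1 was 2.49 with an adjusted p of 0.0536 and was not called.

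In endothelial-like cells 3 members were tested and 0 were called in edgeR, beside 0.0903% of 1107 genes. H2-Aa was −2.28 ± 0.57 with an adjusted p of 0.0791, H2-Ab1 −1.63 with 0.259 and Cd74 −1.73 with 0.253, and these 3 had an unadjusted p under 0.05. DESeq2 called 1, H2-Aa. The pooled sum of the 7 genes was 900 CPM in control and 417 CPM in double-mutant endothelial-like cells, beside 240 and 91.9 CPM of myeloid-only RNA in the same cells.

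Some other genes of the pathway were also called higher in whole glands, where 14.4% of all genes tested were called higher. Of 14 related genes 9 were tested and 5 were called higher, beside that 14.4%: the endosomal protease Lgmn (2.07 on the log2 scale), Ctss (1.94), which trims the invariant chain, the co-stimulatory ligand Cd86 (1.59), the thiol reductase Ifi30 (0.58) and the protease Ctsl (0.50). Of 16 genes of class II transcription and the interferon-γ response 14 were tested and 5 were called higher, beside 14.4% of all genes, among them Spi1 (1.48), a transcription factor of myeloid cells, Irf1 (0.96), which acts after interferon-γ, and the receptor chains Ifngr1 (0.84) and Ifngr2 (0.74). Of 9 class I presentation genes 8 were tested and 6 were called higher, beside 14.4% of all genes, with the peptide transporter chain Tap1 at 1.33. In myeloid-like cells alone, where 6.09% of all genes tested were called higher and 10.4% in either direction, 3 of 8 related genes tested were higher, Ctsl (1.10), Ifi30 (0.79) and Lgmn (0.66), and 2 were lower, H2-Ea-ps (−1.97, adjusted p = 0.0255) and H2-DMb2 (−1.50, adjusted p = 0.0399), in edgeR. In epithelial-like cells, where 6.15% of all genes tested were called higher, 5 of 8 class I genes tested were higher, with Tap1 at 1.46 and H2-K1 at 0.71, beside Irf1 at 1.34. The makeup of this class differed between genotypes, as given above, and its part was not tested.

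CITE-seq glands at P70 gave the same order of genotypes for every member. With 2 glands per genotype such an order is weak, and its share over all genes was not counted. H2-Eb1 was 1600 and 1921 CPM in double-mutant glands and 159 and 139 CPM in control glands. H2-Aa was 1831 and 2221 against 792 and 507 CPM. Cd74 was 7228 and 8284 against 2063 and 1579 CPM. H2-Eb1 was higher by 2.84 ± 0.28 on the log2 scale with an adjusted p of 0.00162 in edgeR, against 0.93 ± 0.30 with an adjusted p of 0.0737 for H2-Aa, which did not pass. Of the 7 members 6 were called higher, beside 9.24% of 10058 genes called higher and 13.7% called in either direction. H2-Ab1 was 1.38 ± 0.30, Cd74 1.38 ± 0.30, H2-DMa 1.62 ± 0.28 and H2-DMb1 1.58 ± 0.32. Ciita, at 10 and 6 UMIs against 2 and 1, was 2.75 ± 0.64 with an adjusted p of 0.0301 in edgeR and 0.232 in DESeq2. H2-Eb1 stood at 87.4 and 86.5 UMIs per 100 H2-Aa UMIs in double-mutant and at 20.1 and 27.4 in control glands. Leaving out either double-mutant gland left 2 members called and leaving out control replicate 2 left 3, with the lone gland assumed to vary like the others.

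Surface class II was read in the same cells by the antibody tag labelled IAIE_MHC, for I-A and I-E. The tag covers both molecules by its label and cannot show whether I-E reached the surface. Its mean centred log ratio over cells, which sets a tag against the other tags of the same cell, was 1.69 and 1.73 in double-mutant glands and 1.122 and 0.918 in control glands. The difference was 0.689 with no overlap, and p = 0.333 in an exact two-sided permutation test, the smallest that 2 against 2 allow. The tag took 17.0% and 18.2% of all tags in double-mutant and 11.7% and 9.67% in control glands. Within myeloid-like cells the order turned, with 4.34 and 4.20 in double-mutant and 5.58 and 5.62 in control glands.

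By population, myeloid-like CITE-seq cells held the most class II RNA in each gland. They held 62395 to 87910 CPM for the sum of the 7 genes over the 4 glands, with both control glands (85653 and 87910) above both double-mutant glands (62395 and 78460). Ig-producing cells held 3708 and 2893 CPM in double-mutant replicates 1 and 2. In replicate 2, T/NK-like cells, at 5162 CPM against 956 in replicate 1, and the 14 cells of a cluster led by Spt1, at 3408 against 473 CPM, lay above them. Epithelial-like cells held 49.5 to 237 CPM. The order of genotypes for this sum in myeloid-like cells was thus that of the epitope, the reverse of the order over whole glands.

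Over all cells of a gland, epitope and RNA were set side by side. In the tenth of cells with the highest epitope of each gland, 95.9% to 100% were myeloid-like, and their summed class II RNA was 6.01 to 230 times that of the other cells in CPM, with a median ratio of 44.8 over the 4 glands. Spearman's rho between epitope and summed class II RNA, in CPM of each cell, was 0.479 to 0.741 over the cells of a gland. It describes cells that share a library. Within 1 population it was lower, at 0.104 to 0.395 over myeloid-like cells and −0.0564 to 0.0499 over epithelial-like cells. In epithelial-like cells the epitope stood at 0.163 and 0.223 in double-mutant and 0.244 and 0.267 in control glands, beside 0.0616 to 0.114 for the control antibodies. Epithelial-like cells with a class II UMI had the lower mean epitope in 2 of the 4 glands. Basal-like cells, with at least 10 cells in the 2 control glands only, stood at 0.570 and 0.612. Fibroblast-like cells ran from 0.288 to 0.965, T/NK-like cells from 0.350 to 0.650 and endothelial-like cells from −0.0275 to 0.725 over the 4 glands. In myeloid-like cells with a class II UMI the mean was 4.54 and 4.37 in double-mutant glands, and in the 10 and 7 with none it was 0.149 and −0.00449. In control glands every myeloid-like cell had a class II UMI.

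**Figure D5:**
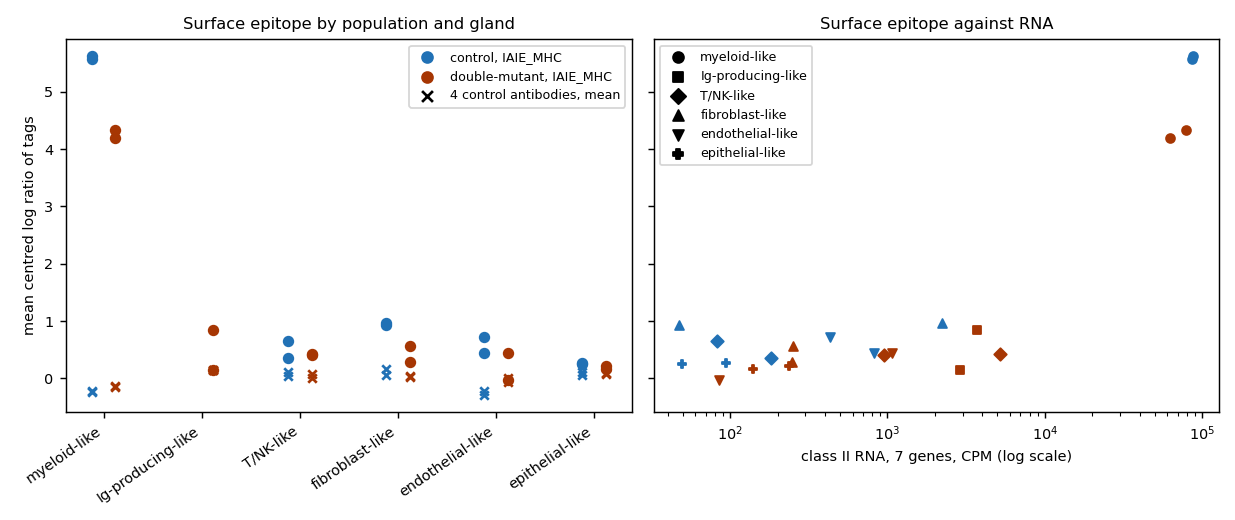
Mean centred log ratio of the IAIE_MHC antibody tag in each CITE-seq gland by cell population, beside the mean of the 4 control antibodies (left), and the same epitope values against the sum of the 7 class II genes in CPM on a log axis (right), coloured by genotype. Myeloid-like cells stand apart at 4.20 to 5.62, with both double-mutant glands below both controls, and no other population drawn exceeds 0.965.

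Class II level was here the mean of the log2 CPM of each tested member, centred and scaled so that each weighed the same. Over the 26 glands, the genes that followed it most closely were Nlrp3 (Spearman's rho 0.981), Rgs10 (0.979) and Pld4 (0.973). They were ranked among 10473 genes outside the class II members and related genes. Over the 29 clusters Apoe (0.947) and Cxcl2 (0.945) came first. Glands share their myeloid content and clusters share libraries, so these values rank likeness only.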

How the data were processed

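UMI counts per gene and cell were deposited as gene by cell tables for 26 Drop-seq and 4 CITE-seq glands, made by the authors by aligning reads to the mouse genome and counting UMIs, with human spike-in cells removed from CITE-seq. The deposited antibody tables hold tag counts per cell, and the deposited bulk tables hold read counts per gene of 2 libraries.

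Cells with at least 100 genes and under 15% mitochondrial UMIs were kept (CITE-seq: at most 2500 genes). They were clustered with scanpy 1.11.5 on 2000 variable genes without class II genes (30 components, 20 neighbours, Leiden resolution 1.0), and clusters were named from marker lists. Doublets called by Scrublet were kept. UMIs were summed per gland and class of cells (at least 10 cells) and tested with edgeR 4.0.16 quasi-likelihood tests in R 4.3.3 (TMM, filterByExpr, sex and stage as covariates, none in CITE-seq), adjusted by Benjamini-Hochberg over all genes tested, with a threshold of 0.05. edgeR was tested on simulated data. Myeloid-like shares were set against permuted gland labels. Promoter letters were searched in RefSeq windows.

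All 7 members are named, and of each pathway list at most the 5 called genes with the largest fold change. An item of these lists is not reported here. The members and lists were chosen with earlier results of these data known. DESeq2 1.42.0, other scalings, filters, batch, a replicate block and omission of glands were tried, and leaving out the acinar-led sub-cluster, the pseudogene-led CITE-seq cluster or, in cell classes, the libraries against their sex labels was chosen after seeing the data. Counting error and the number of glands limit precision, and UMIs of rare genes such as Ciita are too few for firm values. Bulk libraries entered no comparison of groups because each genotype had 1.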

Additional observations from a re-analysis of the deposited data

Results flagged for a closer look

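A gland was listed when its gap to the nearest gland of its group was large against the range of the group. Of 92 groups of values tested 24 had such a gland. The cut-offs are meant to flag about 1 in 20 groups by chance. The groups share glands and the members move together, so the 24 cannot be set against that rate. Double-mutant P40 replicate 2 was the highest of its group for every member over the whole gland, in CPM with the nearest other gland in brackets: H2-Aa 2092 (827), H2-Ab1 2019 (921), H2-Eb1 889 (391), Cd74 4977 (1999), H2-DMa 102 (36.9), H2-DMb1 98.3 (44.6) and Ciita 5.18 (1.31). The same gland was the highest of its group within myeloid-like cells for H2-Aa at 12476 (7823), H2-Ab1 at 11911 (6096), Cd74 at 29603 (16445), H2-DMa at 581 (324) and H2-DMb1 at 565 (278) CPM. Control P40 replicate 2 stood out for H2-Eb1 over the whole gland, at 87.3 (25.6) CPM. In its epithelial-like cells it stood out for H2-Aa at 19.8 (6.64), H2-Ab1 at 19.1 (6.49), Cd74 at 32.0 (10.3), H2-DMa at 1.39 (0.295) and Ciita at 0.696 (0.165) CPM. Double-mutant P90 replicate 5, which went against its sex label, had 83.8 (32.7) CPM of H2-DMb1. In myeloid-like cells control P90 replicate 1 had 18383 (10380) CPM of H2-Aa and 13529 (7195) of H2-Ab1, double-mutant P90 replicate 3 had 8225 (3848) CPM of H2-Eb1, and control P40 replicate 1 had 379 (140) CPM of H2-DMb1. Double-mutant P40 replicate 1, which also went against its sex label, had 98.3 H2-Eb1 UMIs per 100 H2-Aa UMIs, with the nearest other gland at 47.2.

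Bulk RNA libraries of unprocessed glands, 1 control at P70 and 1 double mutant at P100, entered no comparison above. Each member was higher in the double-mutant library, without replicates and at differing ages: H2-Aa was 114 against 84.0 CPM, H2-Ab1 59.8 against 42.9, H2-Eb1 41.2 against 15.04, Cd74 122 against 89.1, H2-DMa 4.32 against 2.81, H2-DMb1 3.66 against 1.91 and Ciita 2.65 against 1.62. The share of all genes higher in that library was not counted, so these values carry no weight as a count.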

How the results depend on the processing

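H2-Eb1 kept its direction and call over whole glands under all 34 alternatives, at 3.52 to 4.68 on the log2 scale. Of 6 members, 5 were called between genotypes. Without the 2 libraries against their sex labels 3 were, and with batch in place of stage 1 was, with 565 in place of 2308 of all genes called. With each gland thinned to the shallowest 1107 genes were called, and with a replicate block 3998. Leaving out each gland gave 3 to 6 members, with 3 without control P40 replicates 3, 4, 5 or 6, control P90 replicate 4, double-mutant P40 replicates 2 or 5, or double-mutant P90 replicates 5 or 6. At P40, where 0 of 6 were called, DESeq2 called 4, no filter on low counts 6 and a replicate block 6, with 731, 1313 and 923 in place of 155 of all genes. Without the filter 2 members were called at P90, 1 for the difference between stages and 4 between control stages. At P90 all-gene calls were 922, and 1504 with DESeq2, 1809 without the filter, 1854 with the block and 368 without the libraries against their sex labels. In myeloid-like cells DESeq2 called 2 (H2-Aa lower) and batch in place of stage 0, with 49 of all genes against 177. Without the acinar-led sub-cluster 33 of all genes were called, without the filter 382, and with at least 20 cells per gland 104. In epithelial-like cells batch in place of stage called 0, with 70 of all genes against 720, and the block gave 1974. In endothelial-like cells DESeq2 called 1, no filter 3 and a replicate block 2, against 0. In CITE-seq glands, where 6 were called, leaving out each gland gave 2 to 6, and DESeq2 called 644 of all genes against 1379, all deposited barcodes 495 and no filter 2356. Signs turned for values that did not pass: without the libraries against their sex labels the stage change in double mutants was −0.0389 for H2-Ab1 and −0.14 for H2-DMb1. In myeloid-like cells Cd74 was 0.24 without the filter and 0.0769 with a replicate block, and H2-DMa was −0.10 with at least 20 cells, −0.0625 with batch in place of stage and −0.36 without the acinar-led sub-cluster. In epithelial-like cells H2-Aa was 0.0276 with DESeq2. The cause of these changes was not tested. Class II RNA of epitope-high cells was 281 times that of other cells with the top 20% of cells, and the share of myeloid-like cells with a Cd74 UMI was 85.7% thinned to 300 UMIs and 91.7% not thinned. For single genes 487 of 576 values kept direction and side of the threshold.

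Replicate numbers did not pair the glands: over 37 pairs of Drop-seq glands with the same number, deviations from group means correlated at −0.30 to 0.46 with a median of 0.04, and 6 of 26 glands were closest to their own number. The CITE-seq pairs correlated at 0.0325, and the block left 6 members called there. Depth limits Ciita, with 43 UMIs, and epithelial counts, and both libraries against their labels, batch in control stages and 2 glands per genotype in CITE-seq limit the rest.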
